A study of Zea mays with 4 samples.

Results

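The regions described here are the binding sites of the maize transcription factor NKD2 that lie in the outer 5% at either end of each of the 10 chromosomes. A site was placed by its summit, the base at which the peak caller put the binding event, and the length of a chromosome was taken as the largest interval end in the NKD1 and NKD2 lists. By this rule 6302 of the 56855 NKD2 peaks were at chromosome ends, which is 11.1% of the list in 10% of the length. The 20 ends were between 7.55 and 15.4 Mb long and covered 210.6 Mb of 2106 Mb. They were compared with the central 20% of the same chromosomes, which runs from 40 to 60% of the length. The centre of chromosome 5 held only 48 NKD2 peaks, so the comparison used the other 9 chromosomes, with 5628 peaks at 18 ends and 11430 peaks in 9 centres. The sites were chosen by position and not by strength, spacing or overlap with NKD1. Chromosome 5 was left out because of the number of its peaks, and density ratios depend on that omission. The 11.1% above includes chromosome 5 and is raised by the few peaks in its interior.

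NKD1 and NKD2 (NAKED ENDOSPERM) are zinc-finger transcription factors of the INDETERMINATE DOMAIN family, encoded by duplicate genes, and they are known for their part in aleurone and starchy endosperm development in the maize kernel. Maize chromosomes are in general richer in genes toward their ends and richer in repeats around their centromeres. The gene content of the ends was not measured here, so they are called chromosome ends and not gene-rich ends.

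The study measured binding by DAP-seq, in which a transcription factor made in vitro is mixed with sheared, naked genomic DNA and the bound fragments are sequenced. Chromatin is absent from such DNA, so the sites show where NKD2 bound naked DNA and not where it sits in endosperm cells. Each of 4 factors (NKD1, NKD2, HB115 and NACTF49) was measured in 1 library, and all libraries used DNA of 14-day-old seedlings of the inbred line B73. Sequencing depth is unknown here, since the lists give peaks and no read totals. With 1 library, peaks and chromosomes are not replicates and no p-value was computed. The 95% intervals below cover counting error only, and in a set of end-by-end intervals about 1 in 20 misses by counting error alone.

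NKD2 peaks had about the same density at the chromosome ends and in the centres of the 9 chromosomes. The 18 ends held 29.9 peaks per Mb (95% interval 29.1 to 30.7) and the 9 centres 30.4 (29.8 to 30.9), a ratio of 0.985 with an exact interval of 0.954 to 1.02. The ends thus did not differ from the centres beyond counting error under these definitions. The call changed with the outer 10% as ends, where the ratio was 0.949 (0.924 to 0.974), with chromosome 5 included, at 1.10 (1.06 to 1.13), and in the strongest 50% of the list, at 1.06 (1.01 to 1.11). End by end, 8 ends were denser than the centre of their own chromosome and 10 were sparser. The first ends of the chromosomes, counted from position 1, held 29.4 peaks per Mb and the far ends 30.4, with a ratio of 0.970 (0.920 to 1.02), so neither side stood apart.

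Among the 20 ends the density ranged from 20.5 to 33.8 peaks per Mb, with a mean of 29.8 ± 2.99 (SD, n = 20 ends), and the 9 centres ranged from 27.7 to 33.4 with a mean of 30.2 ± 1.67 (SD, n = 9 centres). The ends were therefore more unequal among themselves than the centres were, although an end is 4 times shorter than a centre and its count varies more. The start of chromosome 3, with 33.8 peaks per Mb, the far end of chromosome 9, with 33.6, and the start of chromosome 4, with 32.7, were the densest. Their intervals overlapped each other and those of most other ends.

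The start of chromosome 6 was the sparsest end and the one whose interval lay apart from its centre. It held 178 peaks in 8.70 Mb, or 20.5 peaks per Mb (17.6 to 23.7), and its ratio to the centre of chromosome 6 was 0.739 (0.626 to 0.868). Its 8 full 1 Mb steps held between 13 and 29 peaks, with a median of 19.5, so single steps reached the density of the centre while most lay below it. Its longest stretch without a summit was 293 kb. The window just inside it, from 5 to 10% of the chromosome, was sparser still, at 16.0 peaks per Mb. The far end of the same chromosome held 31.0 peaks per Mb. Next in order came the starts of chromosomes 10 and 8, with 26.0 and 26.6 peaks per Mb, and neither interval was apart from that of its centre.

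**Figure D1:**
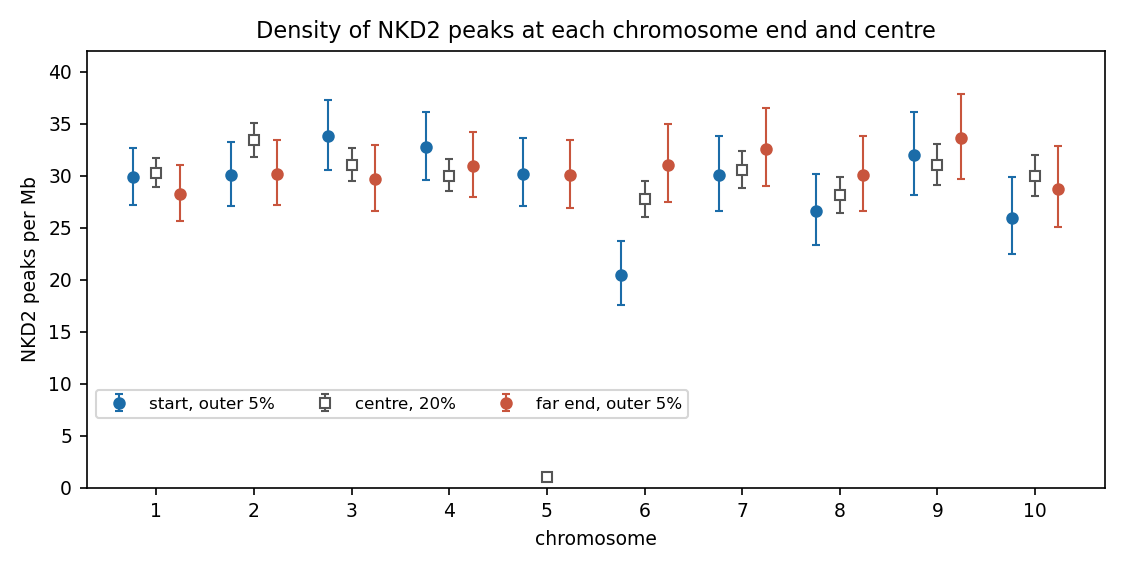
NKD2 peaks per Mb (vertical axis) at the start (blue) and far end (red) of each chromosome and in its central 20% (open squares), with 95% Poisson intervals that cover counting error. The start of chromosome 6 sits at 20.5 and the other 19 ends between 26.0 and 33.8, while the centre of chromosome 5, which was left out of the comparison, sits at 1.07.

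The ends stood slightly above the stretches between them and the centres. These stretches held 28.0 peaks per Mb, and the ratio of the ends to them was 1.07 (1.04 to 1.10). When each chromosome was divided into 20 windows of 5%, the end window was among the 10 densest on 14 of 18 occasions, with a median rank of 6.5. From the tip inward, successive steps of 1% of the length held 29.7, 30.1, 31.9, 27.8 and 30.0 peaks per Mb, and the next part, from 5 to 10%, held 27.7. The density along a chromosome was therefore highest near the middle and, to a smaller extent, at the tips, with no steep change at the 5% boundary. In the last 0.5% of the length inside that boundary there were 28.9 peaks per Mb, and in the next 0.5% outside it 30.7.

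Strong NKD2 peaks made up a larger share of the peaks at the ends. Strength is the signal that the peak caller gave each event, on the scale of the NKD2 list alone, and the strongest 10% of the list (5686 peaks, 10% with ties) had a signal of 43.8 or more. Of all 6302 peaks at the 20 ends, 737 were in this class, or 11.7% (10.9 to 12.5%). On the 9 chromosomes compared, the class held 650 of 5628 peaks at the ends, 11.5% (10.7 to 12.4%), and 1082 of 11430 in the centres, 9.47% (8.94 to 10.0%). The ends were thus higher by 2.08 percentage points (1.10 to 3.09), a difference larger than counting error.

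The direction was the same at 18 of 18 ends and on 9 of 9 chromosomes, where the 2 ends of a chromosome share their centre. The differences ran from 0.033 points at the start of chromosome 6 to 4.48 points at the far end of chromosome 9, and the single-end interval lay above 0 at 3 ends, the far ends of chromosomes 2 and 9 and the start of chromosome 4. The start of chromosome 5 had the largest share of all 20 ends, 14.5%, followed by the far end of chromosome 6, with 14.4%, and the far end of chromosome 9, with 14.2%. The lowest shares were 9.49% at the start of chromosome 7 and 9.55% at the start of chromosome 3, each within 1 point of its centre. Most single ends therefore did not differ from their centre beyond counting error, and the difference rested on their common direction and on the pooled counts.

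**Figure D2:**
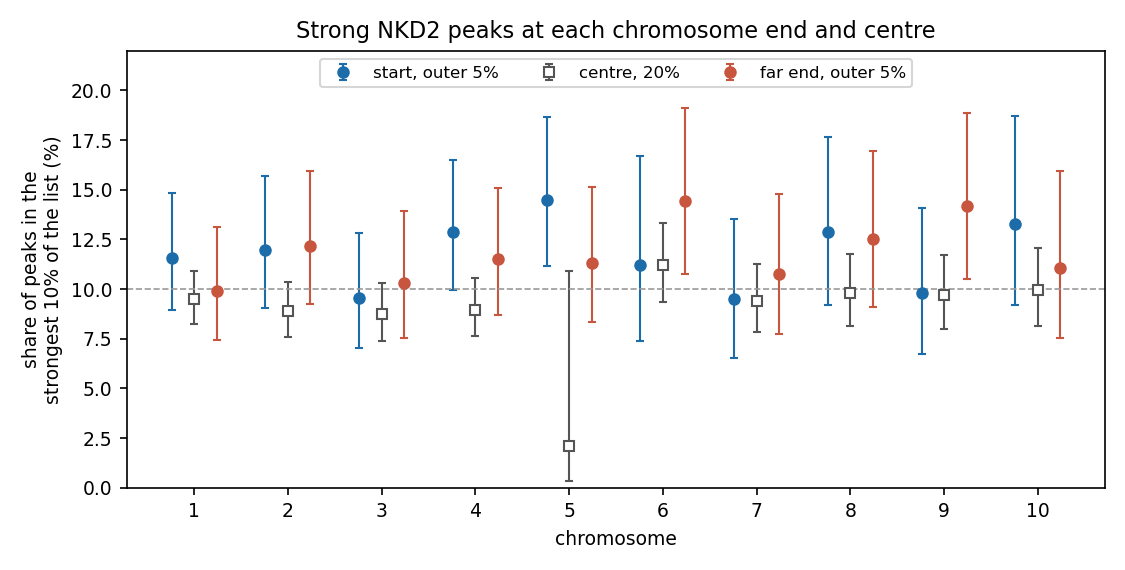
Share of NKD2 peaks in the strongest 10% of the list (vertical axis, %) at the start (blue) and far end (red) of each chromosome and in its centre (open squares), with 95% Wilson intervals; the dashed line marks 10%. Each of the 18 ends compared lies above its own centre, by 0.033 to 4.48 points, and most intervals of an end and its centre overlap.

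How many ends showed the direction depended on the limit of strength. For the strongest 50% of the list the ends held 50.2% and the centres 46.6%, and 15 of 18 ends were higher. For the strongest 20% the shares were 21.7 and 19.0%, and for the strongest 5% they were 5.61 and 4.66%, again with 15 of 18 ends higher. For the strongest 1%, 68 peaks at the ends gave 1.21% and 108 in the centres 0.945%, an interval for the difference that included 0 (-0.057 to 0.622 points), and 12 of 18 ends were higher. With only the outer 2% counted as the end, 12 of 18 ends were higher in the strongest 10%. The pooled difference therefore kept its sign at each of these limits, and the count of 18 of 18 belonged to the limit of 10% and the outer 5%.

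Over all peaks the difference in strength was small. The median signal was 21.4 at the ends and 21.0 in the centres, a difference of 0.4 whose limits, 0 to 1.6, touched 0. The 10th percentile was 14 in both, the 25th was 16.8 at the ends against 16 in the centres, the 75th was 30.5 against 28.9 and the 90th was 46.0 against 42.4. The single strongest NKD2 peak of the list, with a signal of 618, was in the centre of chromosome 1. The strongest at an end had a signal of 310.

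In the pooled counts the larger share of strong peaks went with more strong peaks per length as well as with slightly fewer of the others. Peaks of the strongest 10% numbered 3.45 per Mb at the ends and 2.87 in the centres, a ratio of 1.20 (1.09 to 1.33). The remaining peaks had a ratio of 0.962 (0.930 to 0.995). In the pooled counts strong peaks were thus denser at the ends and the others slightly sparser, while the total density was about equal. By chromosome the ratio of strong peaks ran from 1.08 on chromosome 1 to 1.44 on chromosome 4. That of the others ran from 0.870 on chromosome 2 to 1.03 on chromosome 9. It was above 1 on chromosomes 3, 4 and 7 too. The pooled intervals assume independent positions, but counts in 1 Mb steps within the ends had a variance 1.90 times their mean. The intervals are therefore too narrow, and the lower density of the others is not established.

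In the profile along the 9 chromosomes the 2 end windows ranked first and second of 20 in their share of strong peaks, with 11.7% at the far ends and 11.4% at the starts. The window from 70 to 75% of the length was close behind, with 11.1% (9.96 to 12.4%). The stretches between ends and centres had 9.89%, and the difference from the ends was 1.66 points (0.791 to 2.57). Window by window, the end was among the 10 windows of its chromosome with the largest shares of strong peaks on 16 of 18 occasions. It ranked first on only 3 of them. The strong peaks were thus not merely scarce in the centres, since the ends were above the stretches next to them too.

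**Figure D3:**
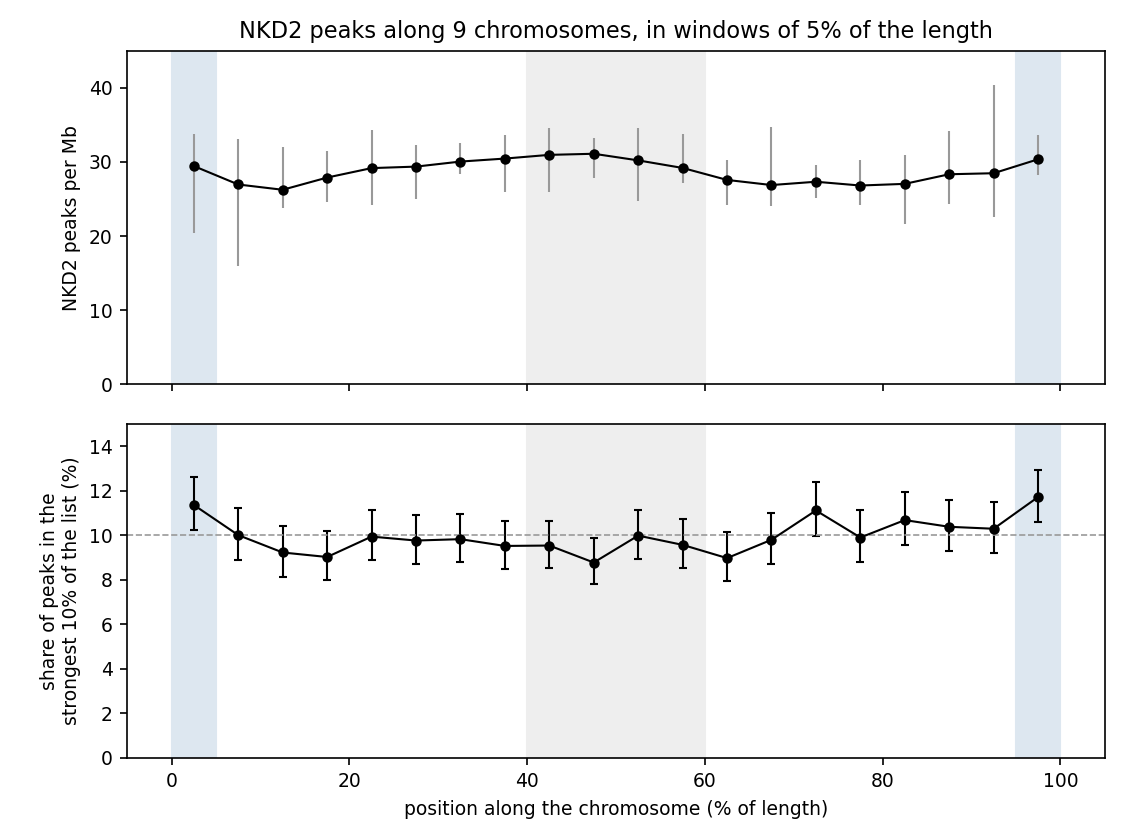
NKD2 peaks per Mb (top) and the share of peaks in the strongest 10% of the list (bottom, %) in 20 windows of 5% of chromosome length, pooled over 9 chromosomes; blue bands mark the ends and the grey band the centre. Grey bars at the top give the lowest and highest chromosome, bars at the bottom are 95% Wilson intervals, and the end windows have the highest shares, 11.4 and 11.7%.

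The strongest peak at each end shows the size of the signals and how often NKD1 was bound at the same place. Coordinates are those of build v4 of the B73 genome, and each deposited interval is 201 bp long. The highest was at the start of chromosome 8, at chr8:7700056-7700256, with a signal of 310, which ranked 7 in the whole list. An NKD1 summit lay 1 bp away, with a signal of 89 on the separate scale of the NKD1 list, above 99.2% of that list. The next were at the far end of chromosome 8, at chr8:176871512-176871712, with a signal of 268, at the start of chromosome 2, at chr2:10612891-10613091, with 263, and at the start of chromosome 3, at chr3:5850781-5850981, with 255. All 3 had an NKD1 summit within 2 bp.

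The strongest peaks of the other ends had signals between 101.7 and 198, and the median over the 20 ends was 169.95. The lowest belonged to the far end of chromosome 3, at chr3:229745143-229745343, where another NKD2 summit lay 67 bp away. Of these 20 peaks, the strongest of each end, 16 had an NKD1 summit within 100 bp, 14 of them at 1 bp and the most distant at 16 bp. The 4 without one were at the far end of chromosome 1 (chr1:305019461-305019661, signal 190), the start of chromosome 4 (chr4:5773068-5773268, signal 128), the far end of chromosome 4 (chr4:244557486-244557686, signal 163.9) and the start of chromosome 9 (chr9:7236855-7237055, signal 133.2). Most of these 20 top peaks thus lay beside an NKD1 peak, which does not hold for the strongest 10% as a whole. Equally strong peaks of the centres were not compared, so this is not shown to be particular to the ends. Within the strongest 10%, 25.4% of peaks at the ends and 27.9% in the centres had an NKD1 match. Of the 100 strongest peaks of the list 16 were at the ends, and of the 1000 strongest 120 were, beside the 11.1% of all peaks that the ends held.

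Close neighbours were as frequent at the ends as in the centres. Over the whole list 7085 peaks, 12.5%, had another NKD2 summit within 1 kb. At the 20 ends 829 of 6302 peaks had one, 13.2% (12.3 to 14.0%). On the 9 chromosomes compared, the share was 13.3% at the ends (748 peaks) and 13.3% in the centres (1524 peaks), with a difference of -0.043 points (-1.11 to 1.06). Uniform positions at the densities of the ends and centres would give 5.81 and 5.89%, so the measured share was 2.29 times the uniform one at the ends and 2.26 times in the centres. NKD2 sites therefore lay closer together than an even scatter to much the same extent in both places. In the strongest 50% of the list the ends had more, by 1.51 points (0.349 to 2.74). The intervals of neighbour shares treat both peaks of a pair as independent, so they are too narrow.

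Single ends differed in both directions. The share with a neighbour ranged from 9.52% at the far end of chromosome 5 to 18.6% at the start of chromosome 7, whose centre had 12.1%. Both ends of chromosome 6, with 15.7 and 15.9%, were above their centre, with 9.85%, and both ends of chromosome 1, with 10.5 and 9.70%, were below theirs, with 14.5%. The intervals of these 5 differences excluded 0, but they treat both peaks of a pair as independent and are too narrow. Whether chromosomes differed beyond counting error is therefore not settled. The measured differences ran in both directions, and the pooled value averaged over them. The start of chromosome 6 combined the lowest density of all ends with one of the higher shares of close neighbours, which made its share 3.92 times the uniform one, the largest ratio of the 20.

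**Figure D4:**
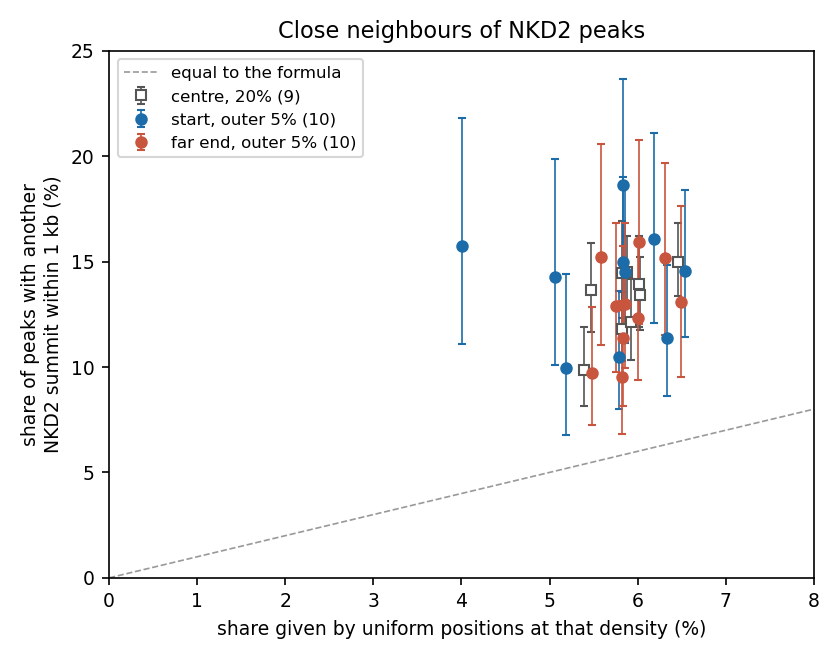
Share of NKD2 peaks with another NKD2 summit within 1 kb (vertical axis, %) against the share that uniform positions at the same density give by formula (horizontal axis, %), for 10 starts (blue), 10 far ends (red) and 9 centres (open squares), with 95% Wilson intervals. All points lie above the dashed line of equality, and the ends scatter on both sides of the centres.

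At a wider distance the ends had more neighbours. Within 5 kb, 38.3% of peaks at the ends and 35.8% in the centres had another summit, a difference of 2.52 points (0.976 to 4.06) that was shared by 13 of 18 ends. Within 10 kb the shares were 56.1 and 54.4%, and 11 of 18 ends were higher. At 200 bp they were 4.46 and 5.05%, with a difference whose interval included 0 (-1.25 to 0.101 points). The direction of the measured difference thus depended on the distance, and at 1 kb neither side was ahead. These intervals also treat neighbouring peaks as independent and are too narrow.

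One class of distance between close summits was less frequent at the ends. Among neighbouring summits up to 1 kb apart, 383 gaps at the ends and 790 in the centres, the gaps over 100 and up to 200 bp made up 20.9% at the ends and 27.1% in the centres, a difference of -6.20 points (-11.2 to -0.926), and the ends had the smaller share on 7 of 9 chromosomes. For the other 3 classes the intervals of the difference included 0, with 2.01 points for gaps up to 100 bp (-1.67 to 6.12), 1.89 points over 200 and up to 500 bp (-3.48 to 7.49) and 2.3 points over 500 bp (-3.53 to 8.24). The most frequent single gap in the centres was exactly 152 bp, which occurred 38 times there, 4.81% of gaps (3.52 to 6.53%), on 9 chromosomes, and 4 times at the ends, 1.04% (0.407 to 2.65%). This length was chosen after the values were seen and for its number in the centres, so the comparison is a description. It falls in the class over 100 and up to 200 bp, which held 214 gaps in the centres and 80 at the ends. The difference in that class thus rests in part on this 1 length, and it was not computed without it. The other lengths of the class are therefore not shown to be less frequent at the ends.

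Most sites at the ends stood alone, and larger groups were rare. With summits joined at up to 1 kb, 5473 of the 6302 peaks stood alone, 774 were in pairs and 51 in groups of 3. One group of 4 lay at the start of chromosome 7, at chr7:8481173-8482579, where the outer summits were 1206 bp apart, the signals ran from 19 to 26.4 and no NKD1 summit was near. On the 9 chromosomes compared, 86.7% of peaks stood alone at the ends and 86.7% in the centres. Pairs held 12.4% of peaks at the ends and 11.9% in the centres. Groups of 3 held 0.853% of peaks at the ends and 1.26% in the centres of the 9 chromosomes, with intervals of 0.644 to 1.13% and 1.07 to 1.48% and a difference of -0.407 points (-0.711 to -0.073). That interval treats peaks of 1 group as independent. Counted as groups, there were 16 at the ends and 48 in the centres, a ratio per length of 0.667 (0.353 to 1.19) that did not differ from 1 beyond counting error.

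An NKD1 summit lay close to a small minority of the NKD2 peaks at the ends. In the whole list 1979 NKD2 peaks, 3.48%, had an NKD1 summit within 100 bp, and at the 20 ends 252 of 6302 did, 4.0% (3.54 to 4.51%). On the 9 chromosomes compared, the share was 3.84% at the ends (216 peaks) and 3.32% in the centres (380 peaks). The difference of 0.513 points (-0.070 to 1.13) was not larger than counting error, and 12 of 18 ends were above their centre. Its interval lay above 0 under 5 of the alternatives tried, with the outer 10% as ends (0.677 points, 0.184 to 1.17), the outer 10 Mb as ends (0.780, 0.172 to 1.43), the central 40% (0.579, 0.050 to 1.16), chromosome 5 included (0.688, 0.117 to 1.29) or chromosome 7 left out (0.679, 0.058 to 1.34). The shares of single ends ran from 1.68% at the far end of chromosome 7, 5 of 297 peaks, to 6.30% at the far end of chromosome 6, 17 of 270 peaks, the only end whose difference from its centre had an interval above 0. The far end of chromosome 5 had 6.25%, 21 of 336 peaks.

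Matched sites at the ends were strong sites with almost coincident summits. The median distance between the 2 summits was 1 bp, 185 of the 252 matched peaks were at exactly 1 bp, and 193 of them, 76.6%, were in the strongest 10% of the NKD2 list. Their median signal ranked above 96.5% of the list. These traits were not particular to the ends. On the 9 chromosomes compared, 76.4% of matched peaks at the ends and 79.5% in the centres were in the strongest 10%. At exactly 1 bp were 72.2% of matched peaks at the ends and 75.8% in the centres. Within the strongest 10%, 25.4% of peaks at the ends (22.2 to 28.9%) and 27.9% in the centres (25.3 to 30.7%) had an NKD1 match, whereas in each of the 4 weakest classes of strength at most 0.472% of peaks at the ends did. Among peaks of the same class the intervals of ends and centres overlapped in each of the 10 classes. When the shares in the 10 classes were weighted equally for ends and centres, the difference was -0.051 points.

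**Figure D5:**
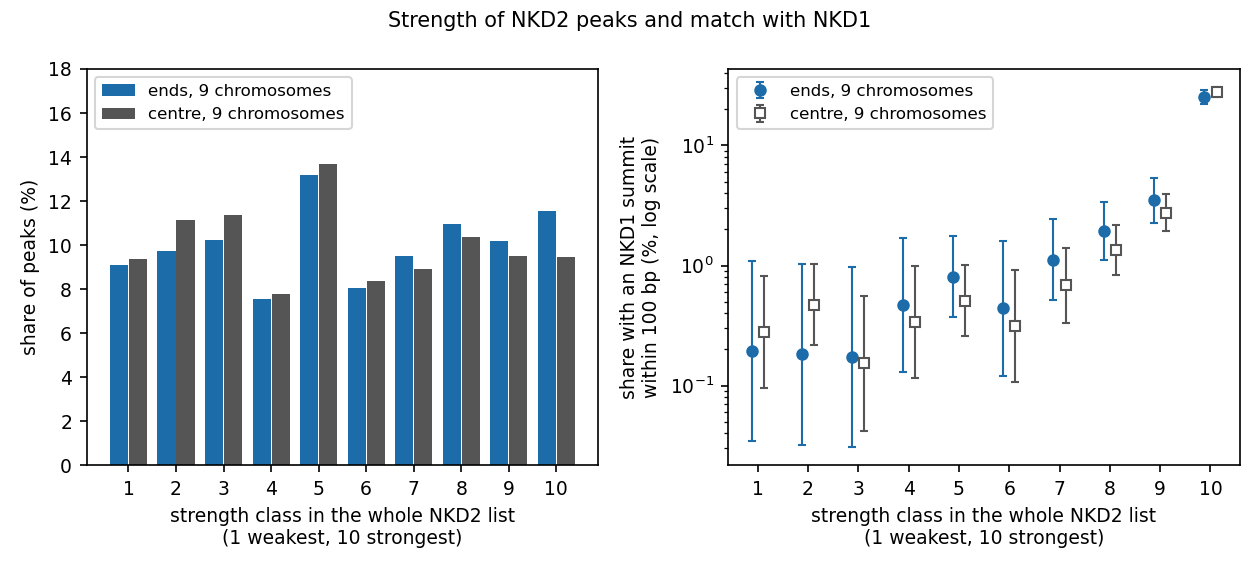
Left, share of NKD2 peaks (%) at the ends (blue) and in the centres (grey) of 9 chromosomes in 10 classes of strength of the whole list, unequal in size because of ties; right, share of peaks in each class with an NKD1 summit within 100 bp (%, log scale), with 95% Wilson intervals. The ends exceed the centres most in class 10, 11.5 against 9.47%, and the shares with NKD1 overlap in every class.

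Seen from the NKD1 list, 244 of its 1951 peaks were at the ends, and 238 of these, 97.5%, had an NKD2 summit within 100 bp. On the 9 chromosomes compared, that share was 98.1% at the ends and 97.0% in the centres, so it was not particular to the ends. On the 9 chromosomes NKD1 peaks numbered 1.11 per Mb at the ends and 0.978 in the centres, a ratio of 1.13 (0.949 to 1.34). The strongest 10% of the NKD1 list made up 13.9% of its peaks at the ends and 10.9% in the centres, with a difference whose interval, -2.35 to 9.12 points, included 0. At this number of NKD1 peaks no difference in density or strength was detectable.

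The other factors were compared with their own centres only, each in the coordinates of its own list, because their build differs from that of the NKD lists by the names the lists carry. Without chromosomes 1, 5 and 8, on which the HB115 and NACTF49 lists have long empty stretches, the ratio of density at the ends to that in the centres was 0.821 (0.614 to 1.09) for HB115, 1.09 (0.988 to 1.20) for NACTF49 and 0.988 (0.952 to 1.03) for NKD2. The difference in the share of the strongest 10% was 2.16 points (1.04 to 3.33) for NKD2, 2.85 points (0.033 to 5.89) for NACTF49 and -0.798 points (-7.72 to 8.65) for HB115. With only chromosome 5 left out, the NACTF49 difference was 2.57 points and its interval included 0 (-0.026 to 5.28). Leaving out chromosomes 1 and 8 as well was chosen after seeing the data. Reads were 150 bp long for NKD1 and NKD2 and 75 bp for HB115 and NACTF49. Without chromosomes 1, 5 and 8, HB115 had only 71 peaks at the ends and 173 in the centres. The differences between factors were not tested.

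The ends of chromosome 5 did not share the sparseness of its centre, which was not confined to the central 20%. Windows of 5% from 10 to 65% of its length held 0.447 to 2.05 peaks per Mb, and the next window held 30.5. The cause of this sparse block was not tested. The ends held 674 peaks, 30.2 and 30.0 per Mb at the start and far end, against 1.07 per Mb in the centre. Compared with the ends of the other 9 chromosomes, their density ratio was 1.01 (0.928 to 1.09), their share in the strongest 10% was higher by 1.36 points (-1.12 to 4.22) and their share with an NKD1 match by 1.5 points (-0.050 to 3.52). These differences did not exceed counting error.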

How the data were processed

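The deposited lists give 1 interval of 201 bp per binding event and library. Per the study's methods, the authors trimmed reads, aligned them to B73 build v4 with Bowtie2, kept mapping qualities above 30 with SAMtools and called events per sample with GEM, which uses reads and enriched short words, so summits depend on sequence too. Events of a HALO-GST control and listed problem regions were subtracted by the authors. The labels name build v3; the NKD lists name v4, which was used. HB115 and NACTF49 lists name v3 and were kept in their own coordinates.

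The deposited signal is GEM's event strength, not scaled between libraries. The deposited −log10 q-value was used for 1 filter and 1 alternative, the deposited −log10 p-value only to read the format, and the deposited display score for nothing.

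From these lists, densities, shares and nearest distances were computed per end and centre (Python 3.11.15, scipy 1.17.1). Ratios carry exact conditional intervals, shares Wilson intervals, differences Newcombe intervals and medians order-statistic intervals; limits of a median difference combine both intervals and are wider than 95%. The uniform neighbour share is 1 − exp(−2 × density × 1 kb). The code was tested on simulated data. Because a chromosome's length is the largest interval end, the last peak marks each far tip. The named peaks are the strongest at each end, and the named ends the 3 densest and 3 sparsest. Members, limits and alternatives were chosen with earlier results of these data known. No genome sequence or gene position of build v4 was used here, so gene content and motifs were not analysed here.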

Additional observations from a re-analysis of the deposited data

How the results depend on the processing

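No paired analysis was possible because only 1 NKD2 library exists in these data. The 6 results were recomputed under alternative settings, 21 to 25 for each result, which gave 140 values. Of these, 126 differed from the reported value by less than the limit set for it (in most cases its own interval). The other 14 were marked as moved. The value in −log10 q was marked so only because its scale differs. A reversal could be called only for the share of strong peaks, because no other interval excluded 0, or 1 for the ratio. None of its 25 alternatives reversed it. Changes of sign in the other results were not counted. The limit for the count of ends was wide, and 12 of 18 ends with the outer 2% counted as within it. The density ratio of 0.985 became 0.949 with the outer 10% as ends, 1.10 with chromosome 5 included, 1.04 at a q-value of 0.0001 or less and 1.06 in the strongest 50% of the list, of which only the value at that q-value had an interval that included 1. The median signal difference of 0.4 became 2 at that q-value. In −log10 q, which is another scale, the median difference was 0.08. The neighbour difference of -0.043 points became 1.18 at that q-value, 1.51 in the strongest 50%, 2.52 within 5 kb and 1.24 without chromosomes 1, 5 and 8. The difference of 2.08 points in strong peaks became 4.04 at that q-value, and 3.58, 0.952 and 0.263 for the strongest 50, 5 and 1%. These points have unlike bases and do not rank the settings. At that q-value the strong class was unchanged and only the total was smaller. The ratio per length of ends to centres was 1.06, 1.20, 1.19 and 1.26 for the strongest 50, 10, 5 and 1%. For the strongest 1% its interval included 1 (0.916 to 1.72). Leaving out each chromosome in turn gave density ratios of 0.973 to 0.999, median differences of 0.1 to 0.65, strong-share differences of 1.90 to 2.24, neighbour differences of -0.584 to 0.787 and NKD1 differences of 0.324 to 0.679 points, with 16 of 16 ends higher in strong peaks each time. The interval of the NKD1 difference lay above 0 with the outer 10% (0.677) or 10 Mb (0.780) as ends, the central 40% (0.579), chromosome 5 included (0.688) and without chromosome 7 (0.679). The strength limits other than 10%, the omission of chromosomes 1, 5 and 8 and the counts of ends were chosen after seeing the data. Gene content and motifs were planned and not run. The causes of these shifts were not tested.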

Other observations

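Across the 20 ends, density showed no relation with the share of strong peaks (Pearson's r = -0.0003, Spearman's rho = 0.038) or with the share of close neighbours (r = 0.0033, rho = 0.22), and the share of strong peaks was weakly related to the share with an NKD1 match (r = 0.295, rho = 0.284). These values describe ends of 1 library, which share its depth, and carry no p-value. Within the ends, 202 steps of 1 Mb held between 13 and 60 peaks, with a median of 30 and a variance 1.90 times the mean, so the density was less even than independent positions give. The longest stretch without a summit at any end was 561 kb, at the start of chromosome 4, which was otherwise the third densest end.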
